A study of Rattus norvegicus with 6 samples.

Results

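The genes of insulin granule docking and exocytosis were compared between beta cells of fed and fasted rats. The set was fixed by gene name and not by values, though with earlier results of these data known. It held 45 genes in 5 roles: SNAREs, the Munc18 group, synaptotagmins, Rab3 and Rab27 with their effectors, and priming and fusion factors. Of these, 44 had a probe set (a group of short probes against 1 transcript) that the array's annotation ties to 1 gene symbol, out of 14217 genes measured in all. Stx2 had none and was not analysed here. Each gene was represented by its probe set with the highest mean over the 6 arrays, out of 67 probe sets for the 44 genes. The cells came from male Wistar rats of 10 weeks that either ate ad libitum or were fasted for 24 h. They were purified by flow cytometry (FACS) and frozen at once, and RNA of all replicates was extracted together. The sort enriched insulin-positive cells and left some other cells of the pancreas among them. Each of the 3 biological replicates per group was a separate isolation from a pool of 5 rats and was hybridized on 1 array. No transgene and no drug treatment entered either group.

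Insulin is stored in dense granules that dock at the plasma membrane and fuse with it when glucose raises the calcium of the beta cell. Fusion is driven by SNARE proteins, with a VAMP on the granule that zips up with a syntaxin and a SNAP25-type protein on the plasma membrane. Munc18 proteins hold and guide the syntaxin. Rab3 and Rab27 on the granule recruit effectors that tether it, priming factors make the SNAREs ready, and synaptotagmins sense calcium. Much of this machinery is shared with the synapses of neurons.

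Fasted replicate 1 stood apart from the other arrays. Its log2 values correlated with those of the other 5 arrays at r = 0.877 to 0.929 over all probe sets, while the other 5 arrays correlated with each other at 0.933 to 0.961. The 5′ over 3′ signal ratio of the beta-actin controls, a sign of RNA integrity, was 0.416 on that array and 0.489 to 0.568 on the others. Median intensity was 17.1, 17.8 and 21.0 on the fasted arrays and 20.2 to 21.8 on the fed arrays. Over all genes the median log2 ratio of fasted over fed was -0.19. Quantile normalization took this shift to -0.01, and scaling by the 75th percentile of each array to 0.03, so changes are also given relative to it. The defining markers of beta cells were present, with Ins2 at 5686 to 6053 on all 6 arrays and none of 7 measured beta cell markers past the thresholds. Markers of other cells were also bright. The summed intensity of 14 acinar markers was 65645 to 70818 in fed and 61060 to 69469 in fasted cells, and Gcg, which encodes glucagon, ranged from 3532 to 7629. Ins2 and 13 of the acinar markers lay at a brightness percentile of 99.8 or above, where a change in mRNA may not show. Single markers of other cells moved with fasting at the thresholds given next. Higher were 1 of 5 duct markers (Krt19, log2 change 0.70) and 1 of 7 endothelial markers (Flt1, 0.83). Lower were 1 of 14 acinar markers (Ptf1a, -1.70) and 1 of 6 Schwann cell and neuron markers (Tubb3, -1.005). None of 4 alpha, 4 delta and PP, 10 immune, 7 stromal and 3 erythroid cell markers passed, and the part of these cells in the results was not tested. In such bulk samples fewer cells of a type and less RNA per cell cannot be told apart.

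Few exocytosis genes changed past the thresholds, and most of those that did were lower in fasted rats. With the thresholds of the study, 1.5-fold and an unadjusted p under 0.05 (here from limma), 4 of the 44 genes were lower: Rab3d, Syt5, Vamp4 and Rab3a. One gene, Syt7, was higher. The share of lower genes (9.09%) was near that of all genes (9.51%), and so was the share of higher genes (2.27% against 2.29%). All 5 lay among the 37 members brighter than the median probe set, where 11.2% of all genes were lower and 1.57% higher. Syt7 is among them only through its fasted values, since its fed mean (15.5) is under the median probe set (20.2) and its fasted mean (33.4) above. Over the 44 genes the log2 change had a median of -0.25 (-0.06 relative to all genes), with quartiles of -0.52 and -0.03. A negative log2 change was seen in 33 of the 44 genes (75% against 67% of all genes). None of the 44 reached an adjusted p under 0.05 from limma (Benjamini-Hochberg over 31042 probe sets), and 0% of all genes did. Of the 44, 10 had an unadjusted p under 0.05.

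Smaller changes that exceeded the spread between replicates were also counted. At an unadjusted p under 0.05 from limma, without a limit on fold, 9 genes were lower (20.5% against 14.9% of all genes) and 1 was higher (2.27% against 3.64%). All 3 fasted values lay below all 3 fed values in 15 genes (34.1% against 21.2% of all genes), and above them in 2 genes (4.55% against 5.76%). Since the exocytosis genes were mostly bright, the like count among brighter genes is the closer one. Of the 37 brighter members 9 were lower at that p (24.3% against 19.5% of all brighter genes) and 14 were lower without overlap (37.8% against 27.4%). These shares are a description, and no test over the list was made. With 3 against 3 arrays, a gene whose groups do not overlap has the smallest p that an exact permutation test allows, 0.10.

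**Figure D1:**
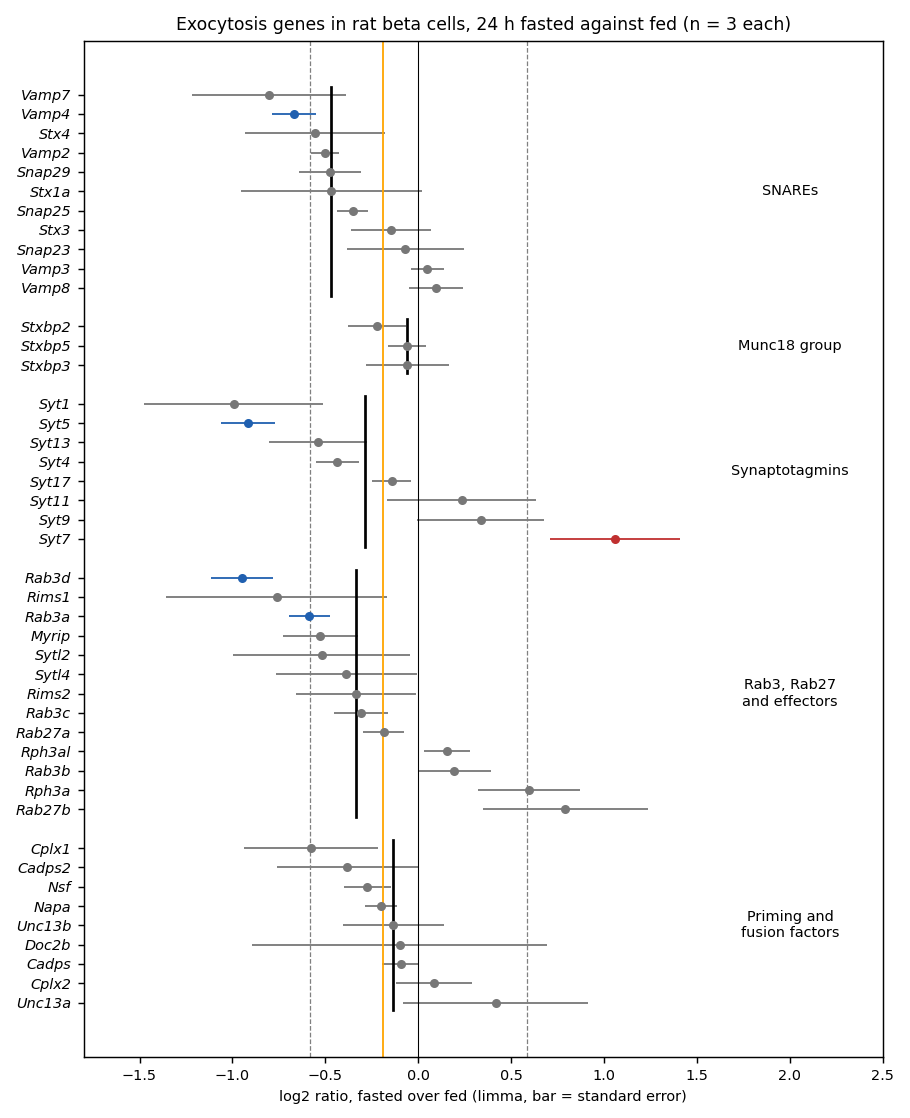
The 44 exocytosis genes by role, each with its log2 fasted over fed ratio and standard error from limma; blue and red mark lower and higher genes past both thresholds, grey genes did not pass, black bars are role medians, the orange line is the median of all genes (-0.19) and dashed lines mark 1.5-fold. The SNARE median lies at -0.47 and that of the Munc18 group at -0.06.

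The promoters of Rab3d, Rab3a and Vamp4, which were lower, and of Vamp2, the granule SNARE with the smallest p, are shown to let their sequence be compared. They are the 250 bases before the annotated start (RefSeq, build GRCr8), 5′ to 3′ in the direction of the gene. Promoters were found for 34 of the 44 genes, and Syt5 and Syt7 were not among them. Capitals mark CCAAT (the CCAAT box), CACGTG (the E-box) or TGACG (the short form of the cyclic AMP response element, contained in the whole form TGACGTCA), on either strand.
Rab3d (chr8:28725268-28725517, minus strand): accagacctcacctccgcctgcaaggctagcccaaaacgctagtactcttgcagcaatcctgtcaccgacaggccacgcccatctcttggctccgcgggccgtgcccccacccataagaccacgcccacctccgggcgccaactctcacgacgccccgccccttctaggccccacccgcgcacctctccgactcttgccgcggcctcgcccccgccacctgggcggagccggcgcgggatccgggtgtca
Rab3a (chr16:18722274-18722523, minus strand): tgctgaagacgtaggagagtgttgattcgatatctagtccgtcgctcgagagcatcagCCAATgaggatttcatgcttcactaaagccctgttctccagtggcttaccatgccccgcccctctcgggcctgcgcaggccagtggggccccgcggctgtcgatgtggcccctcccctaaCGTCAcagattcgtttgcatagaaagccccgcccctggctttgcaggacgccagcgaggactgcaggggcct
Vamp4 (chr13:77453070-77453319, plus strand): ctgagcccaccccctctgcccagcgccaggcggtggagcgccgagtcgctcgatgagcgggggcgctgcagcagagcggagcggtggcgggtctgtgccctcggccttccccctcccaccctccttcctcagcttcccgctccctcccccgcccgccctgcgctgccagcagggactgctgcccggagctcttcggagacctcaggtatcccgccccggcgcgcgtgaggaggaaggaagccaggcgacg
Vamp2 (chr10:54292539-54292788, plus strand): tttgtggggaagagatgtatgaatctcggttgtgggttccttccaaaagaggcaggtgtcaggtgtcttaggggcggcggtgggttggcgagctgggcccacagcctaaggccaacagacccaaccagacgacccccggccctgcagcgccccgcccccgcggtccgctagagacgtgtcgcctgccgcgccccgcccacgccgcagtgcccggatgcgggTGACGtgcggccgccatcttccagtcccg
Rab3a held 1 CCAAT box, at base 59, and 1 TGACG, at base 179 and on the opposite strand. Vamp2 held 1 TGACG, at base 222. The promoters of Rab3d and Vamp4 held none of these motifs. Over all 33469 promoters of this length 18.2% held TGACG, 34% CCAAT, 5.59% CACGTG and 1.59% the whole element. Of the 35 promoters of exocytosis genes (Unc13b has a pair) 10 held TGACG, 12 CCAAT and 5 CACGTG. The whole element TGACGTCA was in 1, that of Napa. The exocytosis promoters were richer in G and C, with a median of 64.8% against 51.2%. A match is a description and says nothing on binding.

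SNAREs had the lowest role median of log2 change (-0.47, and -0.28 relative to all genes), and 9 of 11 were negative. This median is the value of Stx1a, a dim gene, and it was -0.28 without fasted replicate 1 (all genes -0.13), -0.25 with quantile normalization and -0.22 with 75th percentile scaling. At the thresholds 1 of 11 was lower (9.09% against 9.51% of all genes) and none higher, and 5 had fasted values all below the fed ones (45.5% against 21.2% of all genes and 27.4% of brighter ones). Vamp4, a VAMP of the trans-Golgi network and of maturing granules, measured 294, 224 and 267 in fed and 165, 159 and 166 in fasted rats. The fasted arrays lay close together, below every fed one. The log2 change was -0.67 (standard error 0.12, unadjusted p = 0.0013 by limma, adjusted p = 0.176). Vamp4 missed 1.5-fold with quantile normalization (-0.53), with 75th percentile scaling (-0.42), with the mean of its probe sets (-0.58) and without fed replicate 1 (-0.58).

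Vamp2, the VAMP of the insulin granule, measured 421, 403 and 425 in fed and 307, 282 and 293 in fasted rats. Its groups were tight and far from overlap, with a log2 change of -0.50 (standard error 0.08, unadjusted p = 0.0005 by limma, adjusted p = 0.162), a fall short of 1.5-fold. Snap25, its partner on the plasma membrane, measured 1538, 1556 and 1554 in fed and 1099, 1279 and 1267 in fasted rats. The fed arrays were nearly equal and all fasted ones were below them, with a log2 change of -0.35 (standard error 0.08, unadjusted p = 0.0044 by limma). Snap29, a widely expressed SNAP25-type protein of endosomes and autophagosomes, measured 115, 103 and 129 in fed and 70.2, 83.2 and 97.5 in fasted rats, without overlap (log2 change -0.48, standard error 0.17, unadjusted p = 0.0278 by limma). With 75th percentile scaling Vamp2 and Snap25 had an unadjusted p of 0.091 and 0.302 from limma (log2 change -0.26 and -0.11). With quantile normalization the unadjusted p from limma was 0.0036 and 0.0315 (log2 change -0.39 and -0.20).

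The third partner of the neuronal-type complex, syntaxin 1A (Stx1a), was dim and scattered. It measured 24.4, 24.4 and 18.2 in fed and 16.4, 8.71 and 28.8 in fasted rats, so that the groups overlapped (log2 change -0.47, standard error 0.49). Vamp7, a VAMP of late endosomes and lysosomes, measured 99.9, 94.1 and 94.5 in fed and 27.7, 77.7 and 77.8 in fasted rats. Its log2 change of -0.80 (standard error 0.41, unadjusted p = 0.0995 by limma) went to -0.31 (unadjusted p = 0.0177) without fasted replicate 1. Stx4, a syntaxin of the plasma membrane, had 36.1 on that array against 84.8 to 102 on the other 5, and its log2 change went from -0.56 to -0.11 without it. The other endosomal VAMPs were level on the deposited intensities. Vamp8 measured 367, 347 and 443 in fed and 349, 464 and 423 in fasted rats (log2 change 0.09, standard error 0.15), and Vamp3 had 0.05 (standard error 0.09). Relative to all genes Vamp8 and Vamp3 were at 0.29 and 0.24. They were at 0.21 and 0.17 with quantile normalization, and at 0.34 and 0.29 with 75th percentile scaling (unadjusted p = 0.053 for each by limma). Snap23, the broadly expressed relative of Snap25, had a log2 change of -0.07 (standard error 0.32), which turned to 0.20 without fasted replicate 1, and its second probe set had -0.60 (standard error 0.30). Stx3, another plasma membrane syntaxin, had -0.15 (standard error 0.22).

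None of the 3 genes of the Munc18 group passed, and their median log2 change was -0.06 (0.13 relative to all genes). Stxbp5 (tomosyn), which binds syntaxin in place of a VAMP and restrains fusion, measured 148, 171 and 160 in fed and 160, 156 and 143 in fasted rats. Stxbp3 (Munc18c), the partner of Stx4, measured 96.9, 98.5 and 89.8 in fed and 64.9, 111 and 105 in fasted rats. In both genes the groups overlapped, and their log2 changes were -0.06 (standard errors 0.10 and 0.22). That of Stxbp3 was 0.19 without fasted replicate 1. For Stxbp2, the Munc18 protein of many non-neuronal cells, the fasted values were all lower, at 41.9 to 44.6 against 46.7 to 53.5, with a log2 change of -0.22 (standard error 0.16).

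Synaptotagmins moved in both directions, with log2 changes from -0.99 to 1.06 and a median of -0.29. Syt5, a calcium-binding synaptotagmin of dense granules, measured 204, 168 and 211 in fed and 112, 108 and 88.9 in fasted rats. Every fasted array was below every fed one, and the log2 change was -0.92 (standard error 0.15, unadjusted p = 0.000643 by limma, adjusted p = 0.167). Syt7, a calcium sensor with high affinity that acts in insulin secretion, measured 18.5, 14.3 and 13.8 in fed and 47.9, 27.5 and 24.9 in fasted rats. The groups did not overlap, although fasted replicate 1 was far above the other fasted arrays. The log2 change was 1.06 (standard error 0.35, unadjusted p = 0.0223 by limma, adjusted p = 0.285), and 0.77 without fasted replicate 1 (unadjusted p = 0.043). Its p rose past the threshold when fed replicate 2 (0.0649) or fed replicate 3 (0.0695) was left out, and in a comparison of linear means (0.127). The call rested on 1 of 3 probe sets, which had the highest mean of the 6 arrays through its fasted values, while another one had the higher fed mean (16.8 against 15.5). It was also the only one to rise, since the others had log2 changes of -0.21 and -0.12. With the mean of all 3 probe sets the log2 change was 0.24 (unadjusted p = 0.411 from limma).

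Syt4, a synaptotagmin that binds calcium poorly, measured 1331, 1191 and 1216 in fed and 809, 1059 and 910 in fasted rats. All fasted values were lower, with a log2 change of -0.44 (standard error 0.11, unadjusted p = 0.00842 by limma). Syt13, an atypical member without calcium binding, measured 299, 330 and 273 in fed and 137, 226 and 283 in fasted rats, and its groups overlapped (log2 change -0.54, standard error 0.27). Without fasted replicate 1 it was -0.24. Syt1, the calcium sensor of fast synapses, was dim, with 17.5, 8.16 and 12.03 in fed and 3.46, 7.76 and 8.08 in fasted rats. The groups just missed each other, and the log2 change was -0.99 (standard error 0.48, unadjusted p = 0.0826 by limma), or -0.60 without fasted replicate 1 (unadjusted p = 0.221). Syt9, another calcium sensor of dense granules, Syt11, a relative of Syt4, and Syt17, an atypical member, had log2 changes of 0.34, 0.23 and -0.14 (standard errors 0.34, 0.40 and 0.10).

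Of the Rab3 family, 2 of 4 genes were lower, a count of a small family beside 9.51% of all genes and 11.2% of brighter ones. Rab3d, a Rab3 of secretory granules that is also known from the zymogen granules of acinar cells, measured 343, 284 and 362 in fed and 144, 165 and 207 in fasted rats. All fasted arrays were below all fed ones, with a log2 change of -0.95 (standard error 0.17, unadjusted p = 0.00115 by limma, adjusted p = 0.176). Of the 14 acinar markers 13, all of them enzymes or their cofactor, did not pass, but at 2476 to 7267 they were among the brightest probe sets. The other one, the acinar transcription factor Ptf1a, was far dimmer and passed as lower, with 46.0, 29.4 and 54.9 in fed and 11.9, 10.7 and 16.9 in fasted rats. The part of acinar cells in the value of Rab3d was not tested. Rab3a, the main Rab3 of synaptic vesicles and of insulin granules, measured 317, 288 and 330 in fed and 225, 184 and 215 in fasted rats. These groups were also apart, with a log2 change of -0.59 (standard error 0.11, unadjusted p = 0.00172 by limma, adjusted p = 0.176), which is just past 1.5-fold. Rab3a fell short of that fold without fed replicate 1 (-0.57), without fed replicate 3 (-0.54), without fasted replicate 2 (-0.50), with linear means (-0.58), with a pseudocount (-0.58), with quantile normalization (-0.46) and with 75th percentile scaling (-0.34).

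Rab3b and Rab3c, the other isoforms, did not pass. Rab3b measured 195, 240 and 219 in fed and 210, 219 and 332 in fasted rats, with overlap and a log2 change of 0.19 (standard error 0.20). Its log2 change was 0.33 with quantile normalization and 0.44 with 75th percentile scaling (unadjusted p = 0.119 and 0.0223 by limma). Rab3c had fasted values of 59.0 to 72.4, all below the fed ones of 73.3 to 82.6, and a log2 change of -0.31 (standard error 0.15, unadjusted p = 0.077 by limma). Whether the isoforms differed from each other was not tested. Rab27a, the Rab27 of insulin granules, measured 558, 481 and 543 in fed and 416, 455 and 521 in fasted rats, with overlap and a log2 change of -0.19 (standard error 0.11). Rab27b, its close relative, was dim, at 19.5, 10.95 and 15.2 in fed and 39.1, 27.4 and 15.6 in fasted rats (log2 change 0.79, standard error 0.44, unadjusted p = 0.123 by limma). Its groups overlapped through fasted replicate 3, which lay among the fed values.

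None of the 7 effectors of Rab3 and Rab27 passed both thresholds. Myrip, which links granules with Rab27a to myosin and actin, measured 177, 126 and 161 in fed and 119, 83.9 and 122 in fasted rats. The fasted values lay below the fed ones, with a log2 change of -0.53 (standard error 0.20, unadjusted p = 0.0392 by limma), and without fasted replicate 1 it reached -0.60. A second Myrip probe set, also bright, did not move, at 86.7 to 97.4 in fed and 84.1 to 100.98 in fasted rats (log2 change -0.01, standard error 0.13). Sytl4 (granuphilin), which docks insulin granules, measured 475, 467 and 417 in fed and 187, 403 and 550 in fasted rats. Fasted replicate 1 was the lowest and fasted replicate 3 the highest of all arrays, and the log2 change of -0.39 (standard error 0.38) became 0.06 without replicate 1. Rph3a (rabphilin) went the other way without overlap, at 17.9, 13.7 and 18.3 in fed and 26.1, 25.6 and 23.2 in fasted rats (log2 change 0.60, standard error 0.27, unadjusted p = 0.0703 by limma). It passed both thresholds under 6 of the 16 alternatives, quantile normalization (unadjusted p = 0.0344 by limma) and 75th percentile scaling (0.0248) among them. Rph3al (Noc2), an effector needed for regulated secretion, had a log2 change of 0.15 (standard error 0.12). Its log2 change was 0.37 with quantile normalization and 0.40 with 75th percentile scaling (unadjusted p = 0.0068 and 0.0064 by limma), short of 1.5-fold. The active zone proteins Rims1 and Rims2 had -0.76 and -0.34 (standard errors 0.60 and 0.32), and Sytl2, a granuphilin relative, had -0.52 (standard error 0.48). Rims1 was dim, at 12.6, 15.8 and 6.04 in fed and 3.94, 4.82 and 13.0 in fasted rats, with fasted replicate 3 among the fed values, and its log2 change was -0.43 without fasted replicate 1.

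**Figure D2:**
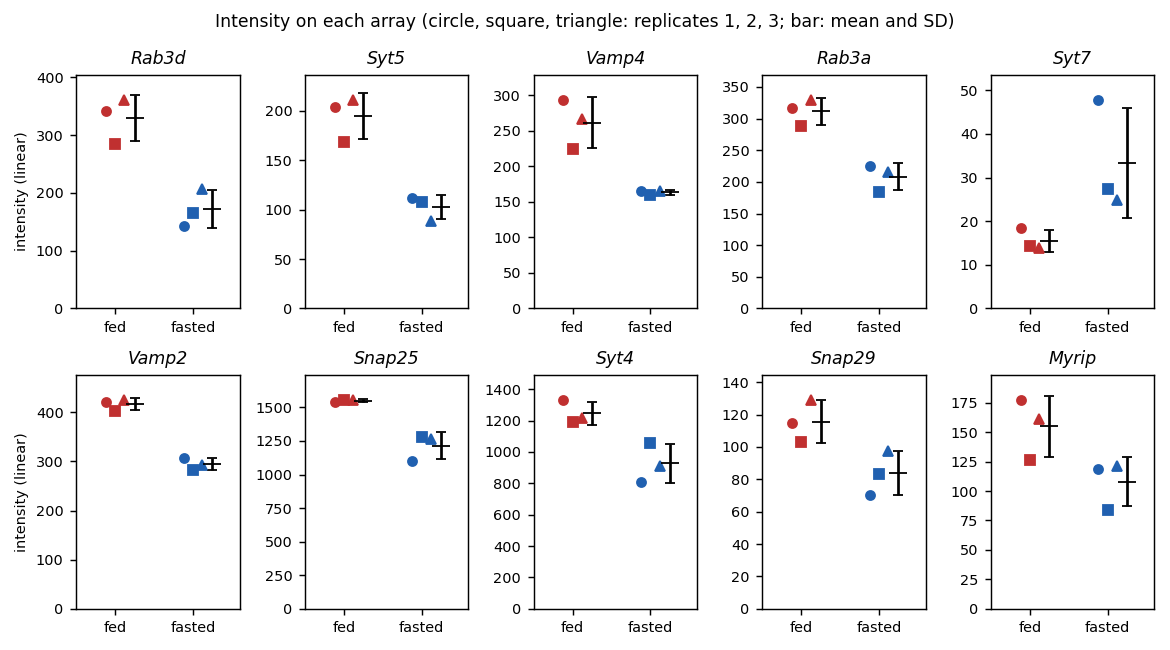
Intensity on each array (linear, from 0) of the 10 exocytosis genes with an unadjusted p under 0.05 from limma, fed in red and fasted in blue; circles, squares and triangles are replicates 1, 2 and 3, and bars give the mean and SD. In all 10 the groups do not overlap, and only Syt7 is higher in fasted rats.

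No priming or fusion factor passed the thresholds, and none had an unadjusted p under 0.05 from limma. Their median was -0.14 (0.06 relative to all genes). Napa (alpha-SNAP), which with the ATPase Nsf takes used SNARE complexes apart, measured 434, 446 and 474 in fed and 377, 379 and 423 in fasted rats. The groups were apart by a small step, with a log2 change of -0.20 (standard error 0.08, unadjusted p = 0.052 by limma). Nsf itself had a log2 change of -0.27 (standard error 0.13), with a fasted value of 209 above the lowest fed value of 207. Cadps (CAPS), a priming factor of dense granules, measured 333, 346 and 314 in fed and 340, 313 and 281 in fasted rats, with overlap and a log2 change of -0.09 (standard error 0.10). Its relative Cadps2 had -0.38 (standard error 0.38). The Munc13 priming proteins Unc13a and Unc13b had 0.42 and -0.14 (standard errors 0.50 and 0.27), and Unc13a was at 2.93 to 11.4 on all arrays, close to the floor of 3.27 under which values were not ordered. The complexins, which clamp and assist the SNARE complex, had -0.58 for Cplx1 (standard error 0.36) and 0.08 for Cplx2 (standard error 0.20). Doc2b, a calcium sensor with high affinity, measured 13.8, 19.7 and 13.5 in fed and 4.10, 23.8 and 30.4 in fasted rats. Its log2 change turned from -0.10 (standard error 0.79) to 0.80 (standard error 0.32, unadjusted p = 0.054 by limma) without fasted replicate 1.

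**Figure D3:**
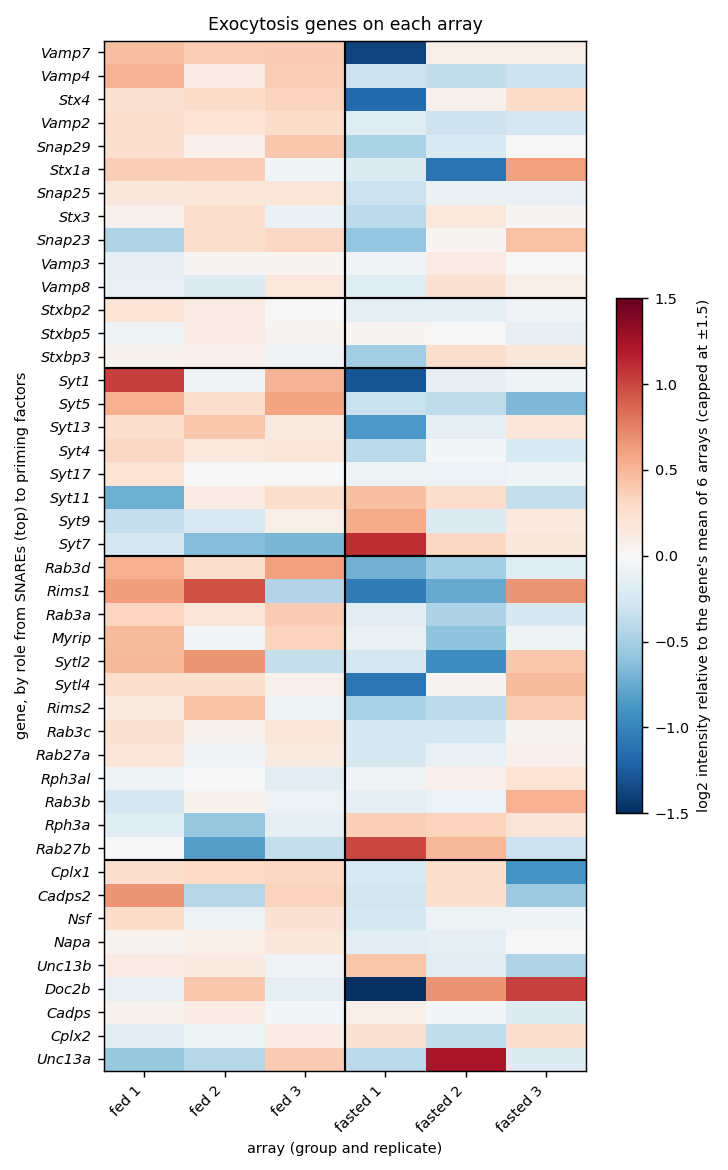
Log2 intensity of each of the 44 exocytosis genes on each array relative to the mean of its 6 arrays, by role from SNAREs at the top to priming and fusion factors; red is above and blue below the mean, with the scale capped. Vamp7, Stx4, Syt1, Sytl4 and Doc2b are deep blue on fasted replicate 1, where Syt7 is deep red.

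The arrays differed from each other in the exocytosis genes, as in all genes. Fasted replicate 1 gave the lowest of the 6 values for 18 of the 44 genes (40.9%), as it did for 42.6% of all genes. It was less than 0.5 times the value of each other array in 5 genes, Vamp7, Stx4, Syt1, Sytl4 and Doc2b (11.4% against 5.94% of all genes), and no other array was so for any of the 44. The median over the 44 genes of the log2 intensity relative to the mean of the arrays was 0.19, 0.12 and 0.14 on the fed arrays and -0.24, -0.09 and 0.00 on the fasted arrays. Over all genes it was 0.11, 0.09 and 0.09 against -0.23, -0.10 and 0.04, and the exocytosis genes differed from these by -0.03 to 0.08. For SNAREs these medians were 0.23, 0.20 and 0.28 in fed and -0.32, 0.03 and 0.01 in fasted rats, and for Rab3, Rab27 and effectors 0.23, 0.05 and -0.07 against -0.24, -0.26 and 0.19. The fasted replicates were less alike over the whole array, with a median coefficient of variation of 27.4% against 15.2% in fed rats over all genes, and 21.0% against 10.8% over the 44. It was larger in fasted rats for 36 of the 44 (81.8% against 70.5% of all genes). For the 44 genes the median over pairs of arrays was 11.1% between fasted replicates 2 and 3, 16.6% and 18.0% for the pairs with fasted replicate 1, and 7.22% to 8.86% between fed arrays.

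Without fasted replicate 1 the 4 lower genes and Syt7 kept their calls and Myrip joined the lower ones. That made 5 lower and 1 higher, against 6.03% lower and 1.53% higher among all genes in the same fit. The log2 change was -0.82 for Rab3d, -0.98 for Syt5, -0.68 for Vamp4 and -0.65 for Rab3a, and the median over the 44 genes was -0.18 (all genes -0.13). The sign of the log2 change turned in 6 genes that had not passed, to positive in Snap23, Stx3, Stxbp3, Sytl4 and Doc2b and to negative in Cplx2. Without fasted replicate 3 there were 8 lower genes and 2 higher ones, with 18.7% lower and 4.94% higher among all genes. Snap29, Syt13, Myrip and Rims1 then joined the lower genes and Rab27b the higher one. Without fed replicate 1 only Rab3d and Syt5 were lower (4.95% of all genes).

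**Figure D4:**
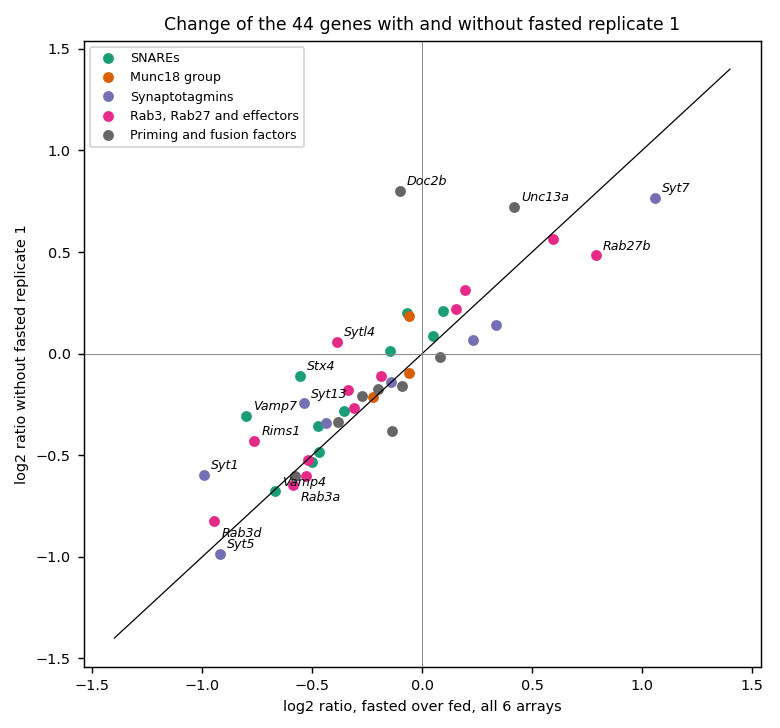
Fasted over fed log2 ratio of each of the 44 exocytosis genes with all 6 arrays (horizontal) and without fasted replicate 1 (vertical), coloured by role; the line marks equal values. Doc2b moves from -0.10 to 0.80 and Sytl4 from -0.39 to 0.06, while Rab3d, Syt5, Vamp4 and Rab3a stay near the line.

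For 17 genes there was more than 1 probe set, and in 13 of these all probe sets had the same sign. Snap29, Stx3, Vamp2 and Syt7 were the exceptions. In Vamp2, Snap29 and Stx3 the other probe sets were dimmer than the median probe set. In the 3 called genes with several probe sets, Rab3a, Vamp4 and Syt7, no other probe set passed. The dimmer probe set of Rab3a measured 82.2, 75.1 and 88.6 in fed and 28.04, 46.1 and 75.01 in fasted rats. It was also lower, most of all on fasted replicate 1 (log2 change -0.83, standard error 0.36, unadjusted p = 0.0567 by limma). The second probe set of Vamp4 had -0.48 (standard error 0.23, unadjusted p = 0.0806 by limma), and its groups overlapped. The second probe set of Syt4 measured 774, 853 and 793 in fed and 207, 597 and 699 in fasted rats, with a log2 change of -0.87 (standard error 0.45). Rab27a was measured by 3 probe sets, which read 416, 59.9 and 43.1 on fasted replicate 1, and only for the first was that array near the others of its group. On the dimmer pair of Rab27a probe sets the log2 change was -0.60 and -0.44 (standard errors 0.46 and 0.42). The dimmest of 3 probe sets of Stxbp5 passed as lower (log2 change -1.67, standard error 0.67, unadjusted p = 0.0445 by limma), with 30.4, 27.0 and 31.2 in fed and 2.72, 13.9 and 17.5 in fasted rats. With the mean of a gene's probe sets Stxbp5 (log2 change -0.68) and Syt4 (-0.65) passed as lower, while Vamp4 and Syt7 lost their calls. Over the 23 probe sets that were not used, fasted replicate 1 was the lowest array in 13.

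**Figure D5:**
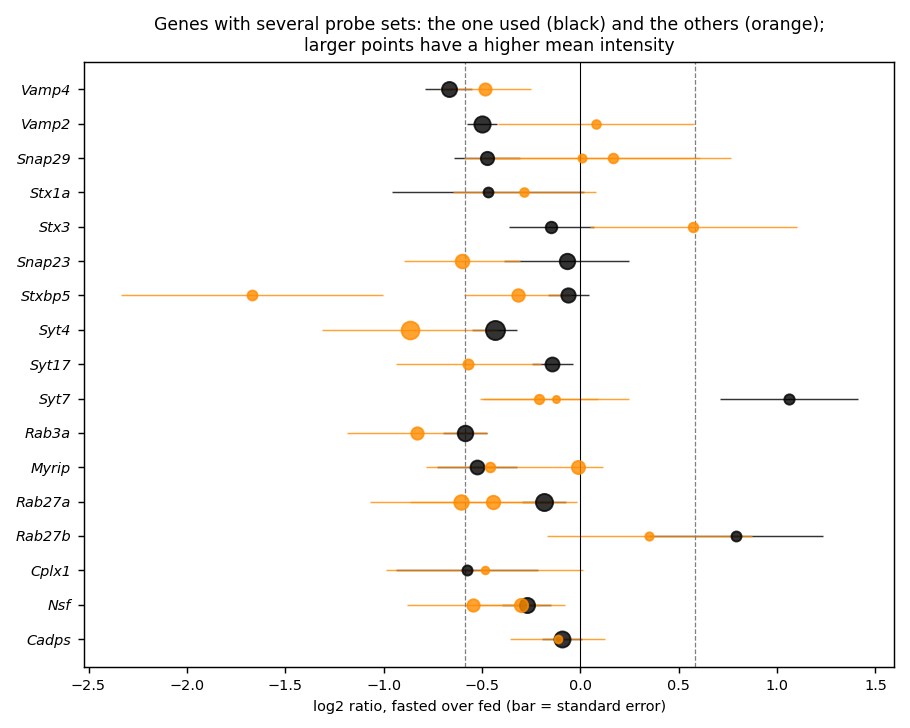
Fasted over fed log2 ratio, with the standard error, of each probe set of the 17 exocytosis genes that had several; the probe set used is black, the others are orange, and larger points have a higher mean intensity. In Syt7 the black point at 1.06 stands apart from the orange ones at -0.21 and -0.12.

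Other genes of the pathway, from lists that hold 71 genes with 57 measured, passed the thresholds at shares at or below those of all genes. Of the 57, 4 were lower at the thresholds (7.02% against 9.51% of all genes) and 0 higher (0% against 2.29%). At an unadjusted p under 0.05 from limma 7 were lower (12.3% against 14.9%) and 1 higher, and 13 were lower without overlap (22.8% against 21.2%). Their median was -0.23 (-0.04 relative to all genes). Among 40 further genes of docking and fusion, Vamp1, a VAMP of synapses, measured 53.4, 76.5 and 61.1 in fed and 23.0, 31.4 and 45.2 in fasted rats (log2 change -0.98, standard error 0.30, unadjusted p = 0.0158 by limma). Napg (gamma-SNAP), a relative of Napa, had a log2 change of -0.61 (standard error 0.18, unadjusted p = 0.014 by limma). Exph5, an effector of Rab27, had a log2 change of -1.01 (standard error 0.36, unadjusted p = 0.0301), with overlap of a fasted value of 31.1 and a fed one of 30.9. Of 9 genes that load or unload Rab3 and its relatives, the exchange factor Rab3il1 was lower, at 7.93, 6.58 and 7.87 in fed and 3.79, 2.74 and 1.75 in fasted rats, the last 2 of which lay under the floor. None of 8 subunits of the exocyst, the tether of vesicles at the plasma membrane, passed (median log2 change -0.35).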

How the data were processed

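Beta cells of fed and fasted rats were profiled on Affymetrix arrays, 3 per group. The authors deposited linear intensities, made in dChip (version not given in the sources used here) by its expression model, with the array of median intensity as the baseline and mismatch probes as background. Precision is limited by the number of arrays.

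Here 57 control probe sets were left out and values under the 10th percentile (3.27) were raised to it, which understates changes of dim genes. The log2 values of 31042 probe sets entered limma 3.58.1 (R 4.3.3) (fed against fasted, intensity trend, two-sided, no block). The p-values were adjusted by the Benjamini-Hochberg method over all probe sets, and the thresholds were 1.5-fold and an unadjusted p under 0.05. Probe sets with 1 symbol numbered 20826, those with several 436 and those with none 9780. All 44 genes matched the current gene table (GRCr8) by gene number, with 0 symbols changed. The fit was tested on simulated data. Levels of different probe sets were used to pick 1 probe set per gene and to call genes bright or dim. They were not read as amounts of mRNA.

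The genes, roles and lists were chosen with earlier results of these data known. All genes are accounted for. Values per array are given for genes past p or 1.5-fold, for the 2 brightest of each role and for Snap25, Vamp2 and Stx1a. Values per array of other genes or probe sets were chosen after they were seen. Alternatives were linear means with unequal variances, leaving out dim probe sets, a higher floor (25th percentile, 7.53), a pseudocount, quantile normalization, scaling to the 75th percentile, robust variance, no trend, the mean of a gene's probe sets, the replicate number as a block and leaving out each replicate. Plots used Python 3.11.15 and matplotlib 3.10.9.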

Additional observations from a re-analysis of the deposited data

How the results depend on the processing

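Rab3d and Syt5 were lower under all 16 alternatives, Vamp4 under 12 and Rab3a under 9, and Syt7 was higher under 12. The number of lower exocytosis genes was 2 with quantile normalization and 2 with 75th percentile scaling. The number of higher ones was 2 under both scalings, with a floor at the 25th percentile and without the intensity trend, where Rph3a joined Syt7. The median log2 change was -0.075 with quantile normalization and -0.0042 with 75th percentile scaling, where all genes had -0.01 and 0.03. Under these scalings role medians turned positive, at 0.10 and 0.18 for the Munc18 group and 0.019 and 0.11 for priming and fusion factors, and were -0.25 and -0.22 for SNAREs, -0.13 and -0.04 for synaptotagmins and -0.14 and -0.09 for Rab3, Rab27 and effectors. Without fasted replicate 1 those 3 were -0.28, -0.19 and -0.18, and for Rab3, Rab27 and effectors -0.61 without fasted replicate 3. Leaving out 1 replicate gave 2 to 8 lower genes, 0 to 2 higher ones and a median of -0.29 to -0.18. With dim probe sets left out, Rab3d reached an adjusted p of 0.0466 from limma. Under the other alternatives no gene of the set had an adjusted p under 0.05.

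Of 697 recomputed values of single genes, 15 lost a call, 16 gained one and 39 changed sign, in 17 genes that had no call. With the replicate number as a block there were 4 lower genes and 1 higher, as without it, and the median stayed at -0.25. Deviations of arrays with the same number correlated at 0.01, 0.03 and -0.04, and those with different numbers at -0.04 to 0.03. The numbers thus gave no sign of pairing, which so few arrays cannot exclude. The cause of these differences was not tested. No scan date was used.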
